A study of Mus musculus with 6 samples.

Results

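Classical monocytes are the Ccr2+ Ly6c2+ monocytes that leave the bone marrow for the blood. Barcodes called so here, by a rule that did not require Ly6c2, were followed in single-cell libraries of whole mouse livers. The livers came from controls and from 2 stages of an orthotopic colorectal cancer model. These barcodes, called monocytes below, were 1153 of the 66935 kept from 6 libraries. Of them, 35 and 47 came from control livers, 401 and 201 from pre-metastatic livers and 285 and 184 from macro-metastatic livers. A barcode was selected on its UMI (unique molecular identifier) counts in these same libraries. It had at least 300 genes and under 25% mitochondrial UMIs, at least 1 UMI of Lyz2 and at least 2 detected genes among Ccr2, Ly6c2, F13a1 and Ms4a4c. Barcodes with 2 or more of Spp1, Arg1, Gpnmb and Trem2, of Clec4f, Vsig4, Cd5l and Timd4, or of Mpo, Elane, Prtn3 and Ctsg were left out, as were those with any UMI of Cd3e, Cd79a, Stab2 or Csf3r. The control group carries the genotype label ctrl, and the pre-metastatic and macro-metastatic groups are labelled as orthotopic colorectal cancer models. All 6 libraries, controls included, name CT26-GFP, colon carcinoma cells of mouse origin with a fluorescent tag. Strain, age, sex, pooling and times are not given in the labels used here. Collagenase digestion and removal of dead cells preceded capture, per the protocol. Nothing says that the 2 libraries of a group are separate animals; the p-values then reflect only the spread of these libraries, which may be technical.

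Monocytes of this kind use the chemokine receptor CCR2 to leave the marrow, and in tissue they can become macrophages or cells with features of dendritic cells. In tumour-bearing mice, monocytic cells that express arginases, interleukin 10 and pattern recognition receptors can dampen T cell responses, and they can attract neutrophils through CXC chemokines. Levels below are CPM, a gene's part of all UMIs summed over the monocytes of a library on the usual per-million scale.

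The label was checked on genes outside the rule. The summed level of 22 monocyte genes such as Plac8, Ms4a6c, Fn1 and Vcan was 12757 and 10637 CPM in control, 14856 and 11084 CPM in pre-metastatic and 15715 and 12088 CPM in macro-metastatic monocytes. B cells had 2408 to 3209 CPM of the same list and dendritic cells 2536 to 3039 CPM, below every monocyte library, while neutrophils, which share many of these genes, had 7397 to 13643 CPM and overlapped the monocytes. Macrophages gated on Spp1 and Arg1 overlapped them too, with 13436 and 14804 CPM in macro-metastatic libraries, where 46 barcodes of each passed that gate. Kupffer cells, the resident macrophages, had 5451 to 9299 CPM. Members were left out of all these other classes, also where they met the gate of one. Ptprc, which encodes the pan-leukocyte antigen CD45, was detected in 90.5% to 100% of the monocytes of a library. No member was shared between the libraries' sets, although pairs of libraries shared 126 to 222 barcodes in all.

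The genes of the rule are described here with no test. Ccr2 was detected in 85.7% to 97.8% of the monocytes of a library, Ms4a4c, a membrane protein of the CD20-like family, in 68.1% to 85.7%, Ly6c2, the Ly6C surface antigen, in 49.8% to 76.1%, and F13a1, a coagulation factor subunit, in 31.3% to 61.8%. Ly6c2 stood at 1254 and 866 CPM in control, 592 and 692 CPM in pre-metastatic and 1042 and 531 CPM in macro-metastatic monocytes, so the groups overlapped. F13a1 likewise overlapped, with 731 and 486 CPM in control, 828 and 342 CPM in pre-metastatic and 787 and 787 CPM in macro-metastatic monocytes.

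The members were not uniform. Of the 1153, 541 had exactly 2 of the 4 marker genes and 612 had 3 or 4. Members with 3 or 4 made up 45.7% and 38.3% of control monocytes, 57.4% and 36.8% of pre-metastatic monocytes and 63.5% and 50.5% of macro-metastatic monocytes. The number of markers detected depends on depth, and the macro-metastatic monocytes were the deepest, as given below. The part of depth in these shares was not tested. Members with 3 or 4 markers had Fn1, which encodes fibronectin, at 2214 and 1699.6 CPM in control, 1386 and 1198 CPM in pre-metastatic and 1828 and 1388 CPM in macro-metastatic livers. Members with 2 markers had Fn1 at 12 and 55.7 CPM in control, 158 and 115 CPM in pre-metastatic and 348 and 95.1 CPM in macro-metastatic livers, below every library of the other subset. Cd209a, a lectin gene of dendritic cells and some monocytes, had 1243 and 732 CPM in control, 1722 and 2034 CPM in pre-metastatic and 475 and 399.5 CPM in macro-metastatic livers in members with 2 markers. With 3 or 4 markers it had 307 and 595 CPM in control, 142 and 323 CPM in pre-metastatic and 5.81 and 229 CPM in macro-metastatic livers, lower in every library. H2-Ab1, an MHC class II chain, stood at 5139 to 7243 CPM in the subset with 2 markers and at 652 to 2934 CPM in the subset with 3 or 4, again without overlap. In all, 150 members also met the dendritic cell gate used here for comparison (at least 2 of Flt3, Xcr1, Clec9a and Zbtb46), which was 17.1% and 29.8% of control members, 13.7% and 18.4% of pre-metastatic members and 5.26% and 12.5% of macro-metastatic members. Members that met the gate of any other class were 34.3% and 40.4% of those from controls, 18.2% and 32.8% of those at the pre-metastatic stage and 12.6% and 25.5% of those at the macro-metastatic stage. The 22 monocyte genes outside the rule summed to 15545 to 19700 CPM in members with 3 or 4 markers. In members with 2 markers they summed to 7195 to 8731 CPM, above B cells and dendritic cells but within the range of Kupffer cells given above. On these genes the label fits the subset with 3 or 4 markers, while for the 541 members with 2 it is only weakly borne out. Monocyte results below are for both subsets together unless a subset is named.

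**Figure D1:**
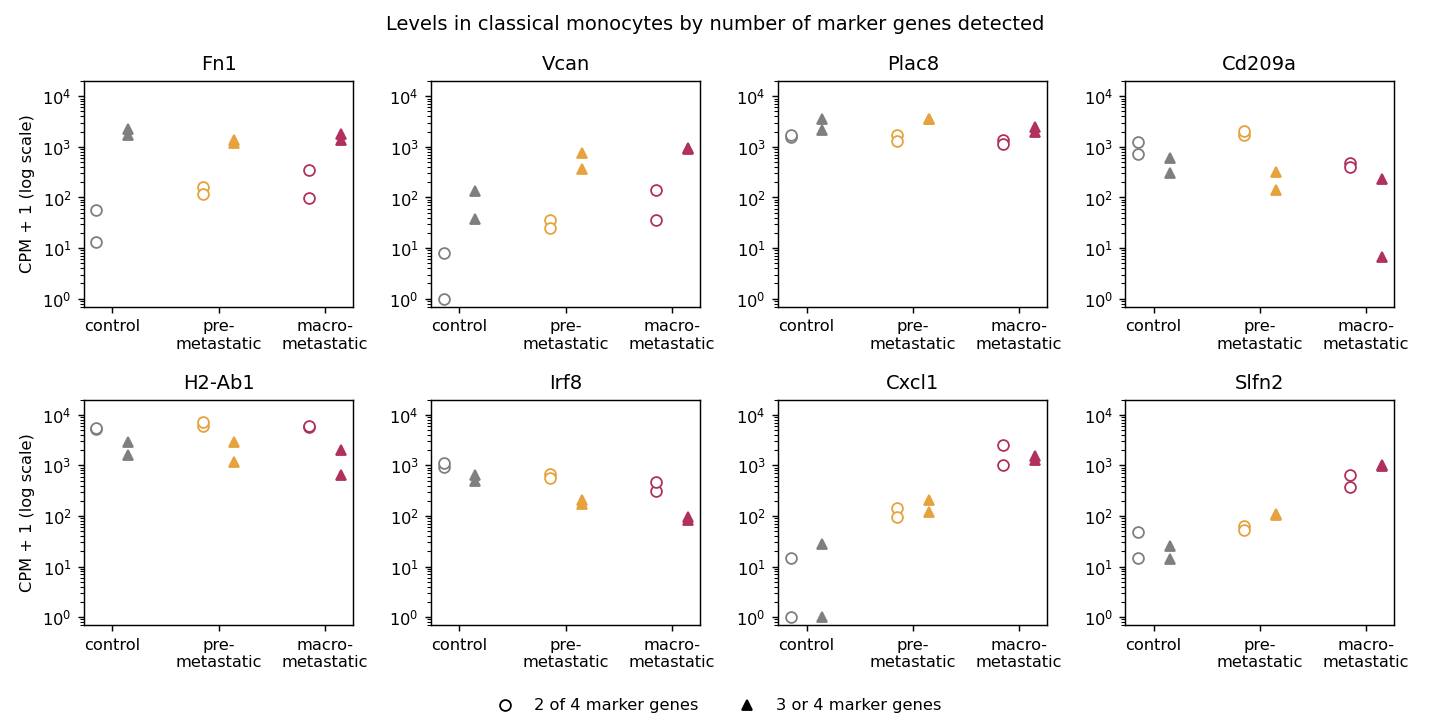
CPM + 1 on a log axis of 8 genes in classical monocytes, with the 2 libraries of each stage as separate points. Open circles are members with 2 of the 4 marker genes and filled triangles members with 3 or 4. Fn1 and Vcan sit higher in the triangles and H2-Ab1 and Irf8 in the circles at every stage, while Cxcl1 and Slfn2 are highest in macro-metastatic livers in both subsets.

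At the edge of the rule, barcodes that met every other condition with 1 of the 4 markers had 262 to 774 CPM of Plac8 and 138 to 269 CPM of Ms4a6c across libraries. Members just inside, with 2 markers, had 1148 to 1747 CPM of Plac8 and 586 to 1012 CPM of Ms4a6c. Chil3, also outside the rule, went the other way in every library. It had 0 to 93.7 CPM with 2 markers and 26.5 to 306 CPM with 1. Ranges of Fn1, Vcan and H2-Ab1 overlapped across the edge. H2-Ab1 had 5139 to 7243 CPM with 2 markers and 4948 to 7265 CPM with 1, so the edge was not sharp for all genes.

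Libraries differed in depth and in transcripts of other cells. The macro-metastatic monocytes were the deepest, with a median of 6626 and 5824 UMIs, against 4220 and 4212 in control and 4444 and 4257 in pre-metastatic livers, and the control monocytes summed to only 158658 and 224122 UMIs in all. The 15 genes of a neutrophil list summed to 120 and 125 CPM in control, 2366 and 425 CPM in pre-metastatic and 7323 and 1746 CPM in macro-metastatic monocytes, led by S100a8; of 11 of them tested between macro-metastatic and control monocytes, Retnlg, Il1r2 and Cd177 rose (1 gene without either control library, 6 without either pre-metastatic library and 9 without macro-metastatic replicate 2). At least 2 genes of that list were detected in 0 of 35 and 2 of 47 control members, 148 of 401 and 20 of 201 pre-metastatic members and 264 of 285 and 135 of 184 macro-metastatic members. In B cells of the same libraries the list summed to 25.4 and 14.1 CPM, 144 and 85.9 CPM, and 1289 and 511 CPM at the 3 stages, and in neutrophils to 31690 to 69354 CPM. Control monocytes held no UMI of S100a8 or S100a9 and lacked 12 and 11 of the 15 genes. A hepatocyte list of 21 genes was highest in the first control library, at 2880 CPM, against 563 to 892 CPM in the others, and a natural killer cell list of 11 genes was also highest there, at 964 CPM. The part of these transcripts in the differences below was not tested, except where values are given beside a result.

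Monocytes made up a larger share of the captured barcodes in both cancer groups than in controls. They were 0.369% and 0.453% of kept barcodes in control livers, 3.89% and 1.89% in pre-metastatic livers and 2.37% and 1.31% in macro-metastatic livers, and neither cancer group overlapped the controls. In edgeR's quasi-likelihood test over 12 classes of barcodes, the log2 fold change was 2.81 (SE 0.55, adjusted p = 0.0148) for pre-metastatic over control and 2.16 (SE 0.53, adjusted p = 0.0126) for macro-metastatic over control. Shares are parts of a whole and many classes moved: 41.7% of the 12 classes passed the test in the first comparison and 91.7% in the second. The share did not pass the test between macro-metastatic and pre-metastatic livers (log2 fold change -0.65, SE 0.50, adjusted p = 0.294), a comparison in which 58.3% of the classes passed. With each barcode thinned to 1000 UMIs before the rule was applied, the 3 log2 fold changes were 3.33, 3.82 and 0.49, the last with its sign turned round and not past the threshold either (adjusted p = 0.584). Applied to thinned barcodes, the rule selected another set, with 31 and 35 control, 525 and 159 pre-metastatic and 873 and 315 macro-metastatic barcodes. Thinning removes UMIs of the excluding genes as well as of the markers, so barcodes left out at full depth can enter. In macro-metastatic replicate 1, 519 barcodes had been removed by Csf3r alone. Without thinning but with the Csf3r condition dropped the rule selected 59 and 72, 867 and 292, and 804 and 404. The part of such barcodes in the thinned shares was not tested. Both rises over control lost their call without control replicate 1 (adjusted p = 0.138 and 0.0793) or without control replicate 2 (adjusted p = 0.129 and 0.0728), with log2 fold changes of 2.67 and 2.02, and 2.97 and 2.31. The 2 comparisons share the control libraries. Per captured barcode, more monocytes and fewer cells of other kinds cannot be told apart.

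**Figure D2:**
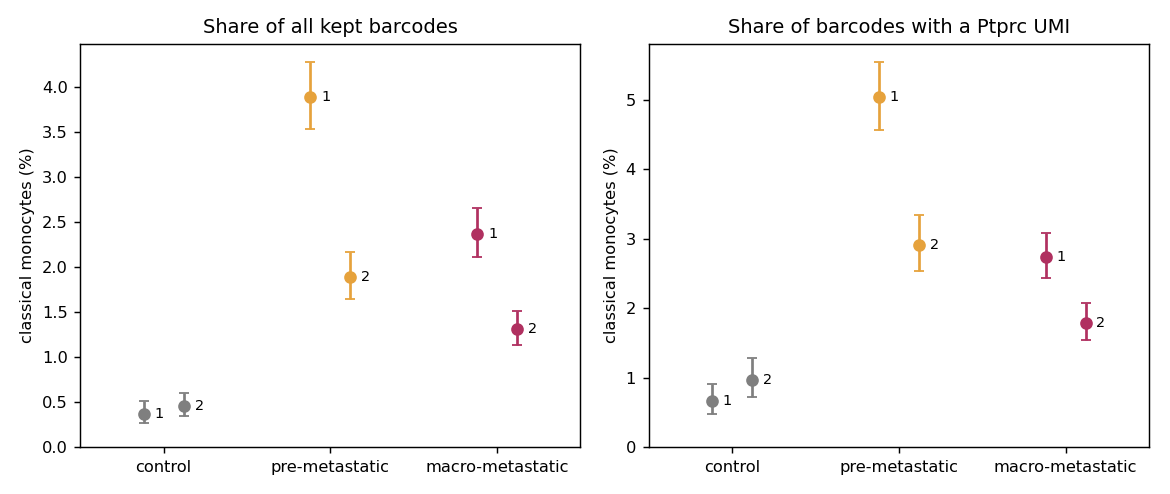
Classical monocytes as a percentage of all kept barcodes (left) and of barcodes with a UMI of Ptprc (right), with 1 point for each of the 2 libraries of a stage, numbered by replicate, and Wilson 95% intervals that cover counting error only. Control points lie at 0.369% and 0.453% on the left and at 0.656% and 0.962% on the right, below all points of the cancer stages.

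Of 8446 genes tested in the monocytes, 562 (6.65%) passed an adjusted p of 0.05 between macro-metastatic and control livers. Of these, 418 (4.95% of those tested) were higher and 144 (1.70%) lower in macro-metastatic monocytes. No gene passed between pre-metastatic and control monocytes (0%), where edgeR gave 681 genes at an unadjusted p under 0.05 and DESeq2 called 22. Between macro-metastatic and pre-metastatic monocytes 833 genes (9.86%) passed, 627 (7.42%) higher and 206 (2.44%) lower, and 370 genes passed in both of the comparisons that made calls. The count for macro-metastatic over control was 112 without control replicate 1, 135 without control replicate 2 and 240 without macro-metastatic replicate 1. With offsets for GC content and transcript length the higher and lower calls were 194 and 181, a share of 51.7% higher in place of 74.4%, and the median log2 fold change of all genes moved to -0.14, from 0.03. Against pre-metastatic monocytes the offsets gave 336 higher and 181 lower calls, 65.0% in place of 75.3%. Without pre-metastatic replicate 1 or 2 or macro-metastatic replicate 1, the 833 calls between the cancer stages became 215, 302 and 340. Counts are summed over cells, and cells are not replicates.

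Chemokine genes whose products attract neutrophils through the receptor CXCR2 were far higher in macro-metastatic than in control monocytes. Cxcl1 (ENSMUSG00000029380, chr5:90891241-90893115) had 12.4 and 8.64 CPM in control, 124 and 131 CPM in pre-metastatic and 2101 and 1212 CPM in macro-metastatic livers. The stages did not overlap, and the log2 fold change of macro-metastatic over control was 7.33 (SE 0.44, edgeR adjusted p = 0.000252). Cxcl2 (ENSMUSG00000058427, chr5:90903871-90905938) had 272 and 182 CPM in control, 885 and 872 CPM in pre-metastatic and 10691 and 3987 CPM in macro-metastatic livers, again without overlap, a log2 fold change of 5.04 (SE 0.46, edgeR adjusted p = 0.000954). Cxcl3 (ENSMUSG00000029379, chr5:90786103-90789600) had 0 and 0 CPM in control, 7.26 and 16.1 CPM in pre-metastatic and 187 and 158 CPM in macro-metastatic livers. It was at least 20.5-fold higher in macro-metastatic than in control livers, against a floor of 3 UMIs over the group (edgeR adjusted p = 0.00265). All 3 passed the test under each of the 17 alternative settings, leaving out any library included. When each barcode was thinned to 1000 UMIs, the share of monocytes with a Cxcl1 UMI was 0% and 2.13% in the control group, 7.33% and 6.63% in the pre-metastatic group and 38.1% and 29.2% in the macro-metastatic group (unthinned, 5.71% and 2.13% in the control group, 12.5% and 14.9% in the pre-metastatic group and 61.4% and 53.8% in the macro-metastatic group). In B cells, which should lack Cxcl1, the thinned share was 0.651% and 0.914% in the control group, 2.52% and 0.256% in the pre-metastatic group and 12.6% and 6.13% in the macro-metastatic group. Before library scaling, Cxcl1 stood at 1878 and 1150.0 CPM in macro-metastatic monocytes, above the 1427 and 371 CPM in neutrophils of the same libraries. Cxcl2, with 9560.0 and 3783 CPM in those monocytes against 16620.0 and 11270.0 CPM in neutrophils, was lower in monocytes. So was Cxcl3, with 167 and 149.5 CPM in monocytes against 384 and 176 CPM in neutrophils. The part of neutrophil transcripts in these rises was not tested.

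The promoter windows of the 3 genes lie within 118.1 kb on chromosome 5, and they are shown because the genes rose together. The windows run from 250 bases before to 50 bases after the gene start on the plus strand (RefSeq, GRCm38.p6; all 3 genes matched). Capitals mark GGGAATTTCCC, the longest run of bases before the start that all 3 windows share, which has the form of the kB element that NF-kB proteins can bind.
Cxcl1, chr5:90890995-90891294: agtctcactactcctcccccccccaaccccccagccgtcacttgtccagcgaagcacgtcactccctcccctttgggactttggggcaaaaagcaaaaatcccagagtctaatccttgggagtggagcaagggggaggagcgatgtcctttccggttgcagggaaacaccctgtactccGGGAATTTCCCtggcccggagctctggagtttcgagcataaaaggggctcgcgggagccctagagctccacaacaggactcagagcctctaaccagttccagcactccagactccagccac
Cxcl2, chr5:90903649-90903948: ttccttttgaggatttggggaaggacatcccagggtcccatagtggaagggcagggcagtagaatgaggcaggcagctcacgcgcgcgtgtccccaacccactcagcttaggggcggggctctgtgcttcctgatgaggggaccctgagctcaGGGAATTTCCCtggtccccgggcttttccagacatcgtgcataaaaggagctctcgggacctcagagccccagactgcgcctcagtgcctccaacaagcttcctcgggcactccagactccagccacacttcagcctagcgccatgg
Cxcl3, chr5:90785851-90786150: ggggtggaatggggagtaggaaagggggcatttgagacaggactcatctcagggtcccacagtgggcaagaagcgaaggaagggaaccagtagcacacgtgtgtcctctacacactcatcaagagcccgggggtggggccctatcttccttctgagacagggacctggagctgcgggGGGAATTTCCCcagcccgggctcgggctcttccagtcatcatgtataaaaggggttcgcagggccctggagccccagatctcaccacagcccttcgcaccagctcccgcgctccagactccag
The run begins 71, 97 and 73 bases before the start of Cxcl1, Cxcl2 and Cxcl3. Searched on both strands, the same 11 letters occur in 14 of 32851 promoter windows of this length (0.0426%). The letters were read from these windows, and a match is a description, not a bound site.

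Over all genes, 4.95% were called higher and 1.70% lower in macro-metastatic over control monocytes, the share to set beside each list count. The wider list of inflammatory cytokines and NF-kB feedback genes moved one way in these monocytes. Of 32 genes tested, 12 rose and none fell between macro-metastatic and control livers, with a median log2 fold change of 1.34 against 0.03 over all genes, and 8 and 7 rose without control replicate 1 and 2. Nlrp3, an inflammasome sensor, had 1284 and 1012 CPM in macro-metastatic livers, against 229 and 225 CPM in control livers, a log2 fold change of 2.34 (SE 0.22, edgeR adjusted p = 0.000954). Ptgs2, the inducible cyclooxygenase, had 1169.5 and 863 CPM in macro-metastatic livers, against 155 and 186 CPM in control livers, a log2 fold change of 2.57 (SE 0.27, edgeR adjusted p = 0.00135). In both genes the pre-metastatic libraries lay between the others. Il1b, the interleukin 1 beta gene, had 779 and 1439 CPM in control, 2087 and 3163 CPM in pre-metastatic and 3096 and 1805 CPM in macro-metastatic livers; the cancer groups overlapped each other, and macro-metastatic over control did not pass (edgeR adjusted p = 0.0804).

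**Figure D3:**
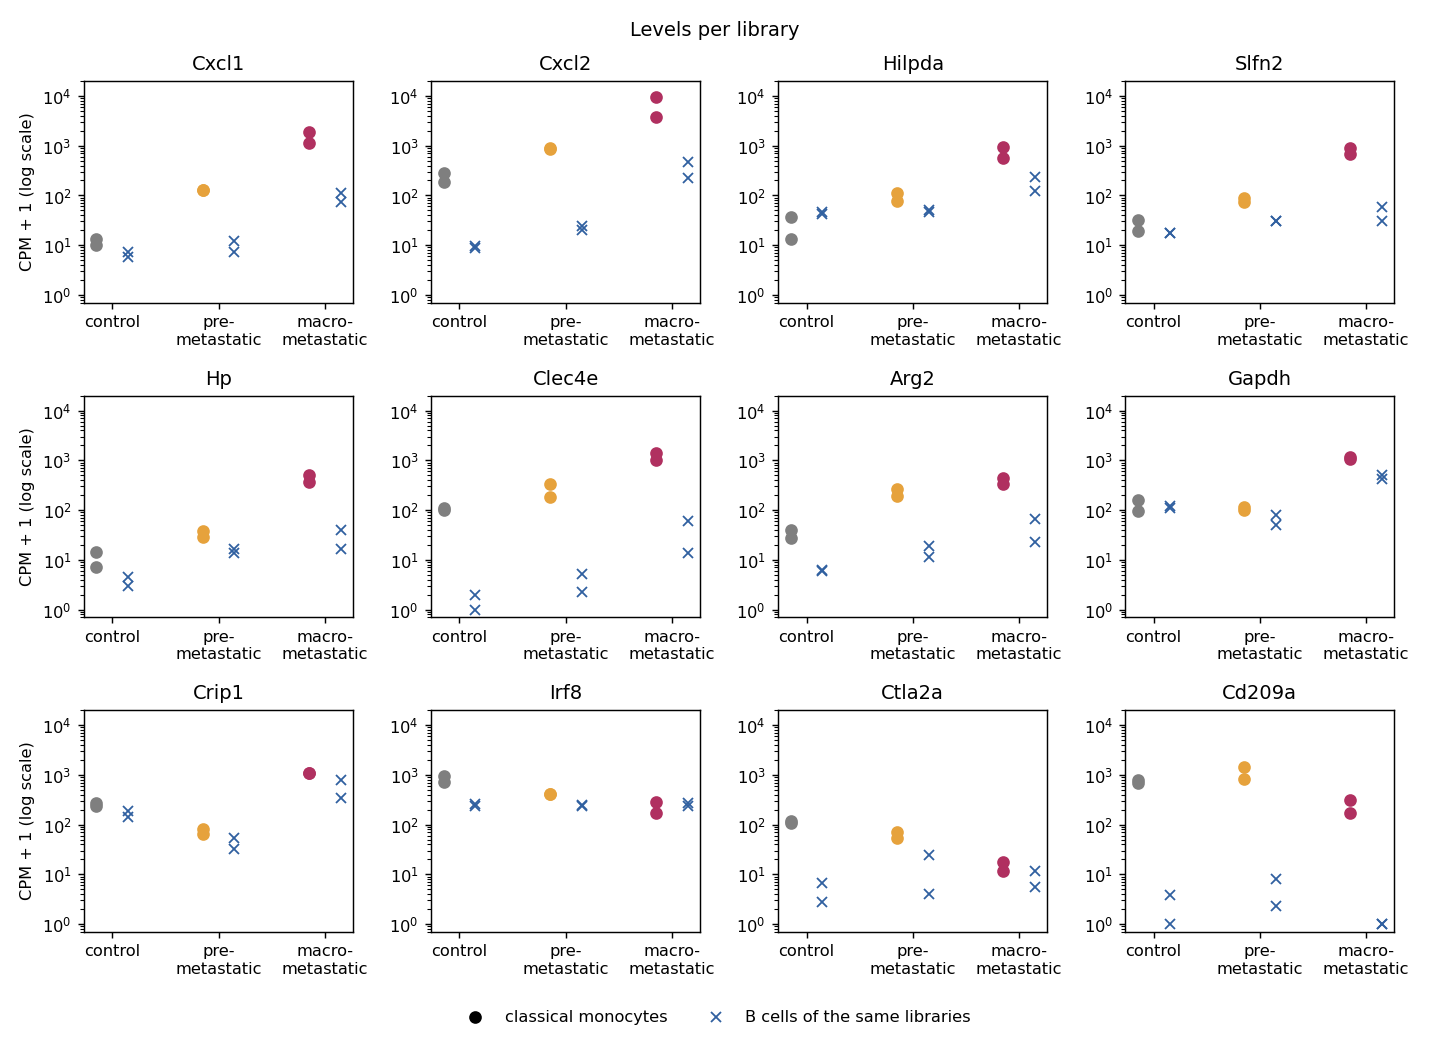
CPM + 1 on a log axis of 12 genes in the 2 libraries of each stage, without TMM scaling. Filled circles are classical monocytes and crosses B cells of the same libraries. Cxcl1, Hilpda and Slfn2 climb further in monocytes than in B cells, Gapdh and Crip1 move in both, and Irf8, Ctla2a and Cd209a are lowest in macro-metastatic monocytes.

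A list of genes described in suppressor-type myeloid cells changed in the same direction: 14 of 26 rose and none fell, median log2 fold change 2.01, with 7 and 6 rising without control replicate 1 and 2. Arg2, the mitochondrial arginase, had 37.1 and 25.9 CPM in control, 254 and 192 CPM in pre-metastatic and 483 and 347 CPM in macro-metastatic livers, without overlap between stages and with a log2 fold change of 3.75 (SE 0.35, edgeR adjusted p = 0.000954) for macro-metastatic over control. Clec4e, the C-type lectin Mincle, had 98.9 and 108 CPM in control, 327 and 181 CPM in pre-metastatic and 1572 and 1086 CPM in macro-metastatic livers, also without overlap, a log2 fold change of 3.68 (SE 0.35, edgeR adjusted p = 0.000954). Its neighbour Clec4d had 439 and 394 CPM in macro-metastatic livers, against 18.5 and 47.5 CPM in control livers, a log2 fold change of 3.56 (SE 0.36, edgeR adjusted p = 0.00122). Il4ra, the interleukin 4 receptor alpha chain, had 1 UMI in the controls and a ratio of 36 (exact 95% counting interval 6.40 to 1426), and Il10, an anti-inflammatory cytokine named here after its values were seen, had none and was at least 6.08-fold higher. Neutrophils carried more Arg2 and Clec4e than monocytes in every library, for Clec4e 2576 and 1933 CPM in macro-metastatic livers, and neutrophil transcripts in the monocytes were higher in macro-metastatic livers as given above; their part in this list was not tested.

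The lists share genes. Of the 14 suppressor-type rises, Il4ra, Trem1, Hif1a, Vegfa, Slc7a11 and Thbs1 are counted again in lists from here on. Pattern recognition and Fc receptors came next. Of 27 tested, 9 rose and none fell, median log2 fold change 1.10, but 2 and 1 rose without control replicate 1 and 2, and 5 without macro-metastatic replicate 1. Cd14, the lipopolysaccharide co-receptor, had 377 and 475 CPM in control, 1123 and 993 CPM in pre-metastatic and 2327 and 1618 CPM in macro-metastatic livers, with no overlap and a log2 fold change of 2.20 (SE 0.23, edgeR adjusted p = 0.00133) that passed under all 17 alternatives. Trem1, an amplifier of inflammatory signals, had 466 and 313 CPM in macro-metastatic livers, against 43.3 and 51.9 CPM in control livers, a log2 fold change of 3.02 (SE 0.43, edgeR adjusted p = 0.00553). Tyrobp, the adaptor of TREM receptors, had 1691 and 1486 CPM in macro-metastatic livers, against 692 and 653 CPM in control livers, a log2 fold change of 1.24 (SE 0.17, edgeR adjusted p = 0.0043). Neither Trem1 nor Tyrobp passed when a control library was left out. Among cytokine receptors 4 of 23 rose and none fell, median log2 fold change 0.16. Il1r2, a decoy receptor for interleukin 1, had 465 and 488 CPM in macro-metastatic livers, against 18.5 and 73.5 CPM in control livers, a log2 fold change of 3.26 (SE 0.39, edgeR adjusted p = 0.00244). Csf2rb, the common beta chain of the GM-CSF receptor, had 976 and 812 CPM in macro-metastatic livers, against 321 and 225 CPM in control livers, a log2 fold change of 1.73 (SE 0.23, edgeR adjusted p = 0.0038). Both passed under all alternatives. Neutrophils, whose transcripts were higher in macro-metastatic monocytes, held more of these receptors. In macro-metastatic livers Trem1 was at 1781 and 2436 CPM in neutrophils, Cd14 at 3207 and 3378 CPM and Csf2rb at 898 and 1243 CPM, above the monocytes of the same library. Il1r2 was at 2506 to 4595 CPM in the neutrophils of all libraries.

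Of 28 genes of glycolysis and the hypoxia response 14 rose and none fell, with a median log2 fold change of 1.48 (1.46 with a gene absent from controls set to its bound). The count was 5 and 4 without control replicate 1 and 2 and 8 with GC and length offsets. Hilpda (ENSMUSG00000043421, chr6:29272488-29275446), a lipid droplet protein induced by hypoxia, had 12.4 and 34.6 CPM in control, 75.8 and 114 CPM in pre-metastatic and 1037 and 609 CPM in macro-metastatic livers, with no overlap and a log2 fold change of 5.03 (SE 0.47, edgeR adjusted p = 0.000954). The thinned share of monocytes with a Hilpda UMI was 2.86% and 4.26% in the control group, 7.33% and 7.14% in the pre-metastatic group and 42% and 32.2% in the macro-metastatic group (unthinned, 5.71% and 10.6% in the control group, 20.2% and 27.9% in the pre-metastatic group and 73% and 62% in the macro-metastatic group). In B cells it was 5.21% and 2.74% in the control group, 2.97% and 5.37% in the pre-metastatic group and 19.8% and 9.68% in the macro-metastatic group. Gapdh, a glycolytic enzyme, had 92.7 and 156 CPM in control, 97 and 115 CPM in pre-metastatic and 1298 and 1119.7 CPM in macro-metastatic livers, so only the macro-metastatic libraries were high; the log2 fold change over control was 3.25 (SE 0.26, edgeR adjusted p = 0.000457). B cells were also highest in macro-metastatic livers, with 117 and 109.9 CPM in control, 48.7 and 79.5 CPM in pre-metastatic and 419.9 and 518 CPM in macro-metastatic livers of Gapdh. Pkm, a pyruvate kinase gene, had 545 and 465 CPM in macro-metastatic livers, against 98.9 and 90.8 CPM in control livers, a log2 fold change of 2.42 (SE 0.23, edgeR adjusted p = 0.000954). Slc2a1, the glucose transporter GLUT1, had 101 and 90.0 CPM in macro-metastatic livers, against 6.18 and 13 CPM in control livers, a log2 fold change of 3.22 (SE 0.44, edgeR adjusted p = 0.0043). Hif1a, the oxygen-regulated transcription factor, had 288 and 245 CPM in macro-metastatic livers, against 74.2 and 99.4 CPM in control livers, a log2 fold change of 1.59 (SE 0.27, edgeR adjusted p = 0.0106), and did not pass when either control library was left out.

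Iron, metallothionein and antioxidant genes gave 10 rises in 19 and no fall, median log2 fold change 1.59, with 5 and 4 rises without control replicate 1 and 2 and 6 with GC and length offsets. Mt1, a metal-binding metallothionein, had 591 and 808 CPM in macro-metastatic livers, against 18.5 and 51.9 CPM in control livers, a log2 fold change of 4.21 (SE 0.43, edgeR adjusted p = 0.00133). Fth1, the ferritin heavy chain, had 8339 and 6800.0 CPM in macro-metastatic livers, against 2924 and 2122 CPM in control livers, a log2 fold change of 1.59 (SE 0.19, edgeR adjusted p = 0.00244). Hmox1, which degrades haem, had 313 and 247 CPM in macro-metastatic livers, against 61.8 and 51.9 CPM in control livers, a log2 fold change of 2.32 (SE 0.29, edgeR adjusted p = 0.00277). Slc7a11, the cystine transporter, had 3 UMIs in the controls and a ratio of 13.5 (exact 95% counting interval 4.56 to 65.6), and Mt2 had 2 and a ratio of 76.2 (exact 95% counting interval 21 to 629.6). Among 33 genes of oxidative phosphorylation 10 rose and none fell, median log2 fold change 0.70. With GC and length offsets none of the 33 passed, and without control replicate 1, control replicate 2 or macro-metastatic replicate 1 the count was 1. Cox4i1, a cytochrome c oxidase subunit, had 375 and 422 CPM in macro-metastatic livers, against 167 and 177 CPM in control livers, a log2 fold change of 1.21 (SE 0.21, edgeR adjusted p = 0.0125).

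**Figure D4:**
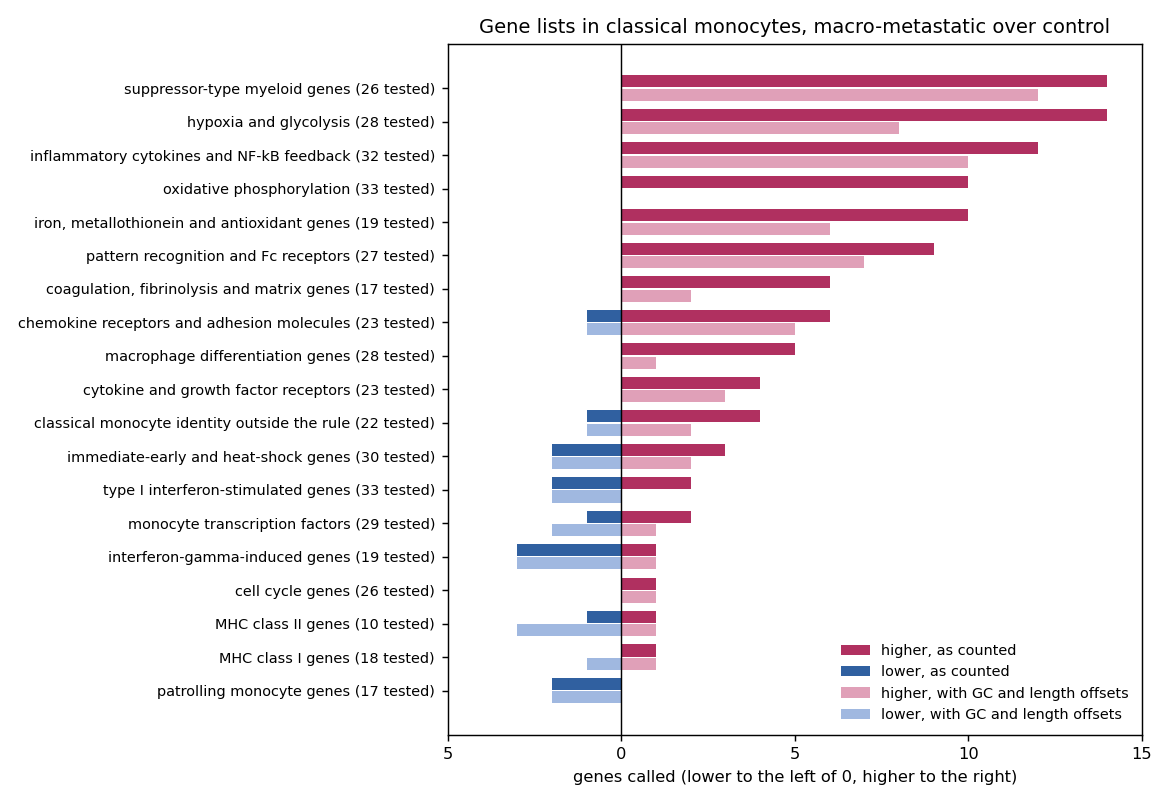
Number of genes called higher (bars to the right of 0) and lower (bars to the left of 0) in macro-metastatic over control monocytes for 19 gene lists, with the number of genes tested in brackets. Dark bars are the test as described and pale bars the same test with GC and length offsets. The suppressor-type list has 14 higher calls and 12 with the offsets, while oxidative phosphorylation goes to 0.

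Further genes were named for the size of their change, and some are also counted in lists. Il1a is in the inflammatory list, Hp and Cd177 are in the monocyte identity list below, and F10 is in the coagulation list below. Slfn2 (ENSMUSG00000072620, chr11:83065112-83070678), a schlafen family gene needed for monocyte and T cell quiescence in mice, had 30.9 and 17.3 CPM in control, 84.1 and 71.9 CPM in pre-metastatic and 1012 and 701 CPM in macro-metastatic livers. Only the macro-metastatic libraries were high, and the log2 fold change over control was 5.21 (SE 0.36, edgeR adjusted p = 0.000407). A Slfn2 UMI was seen after thinning in a share of monocytes of 8.57% and 2.13% in the control group, 8.90% and 6.63% in the pre-metastatic group and 51.8% and 39.8% in the macro-metastatic group (unthinned, 14.3% and 8.51% in the control group, 29.7% and 24.9% in the pre-metastatic group and 81.4% and 70.1% in the macro-metastatic group). The share of B cells was 1.52% and 2.01% in the control group, 3.66% and 3.58% in the pre-metastatic group and 5.99% and 4.19% in the macro-metastatic group. Hp, which encodes the haemoglobin scavenger haptoglobin, had 6.18 and 13 CPM in control, 36.3 and 27.9 CPM in pre-metastatic and 566 and 385 CPM in macro-metastatic livers, a log2 fold change of 5.54 (SE 0.44, edgeR adjusted p = 0.000457). Neutrophils held 924 and 995 CPM of Hp and 1167 and 846 CPM of Slfn2 in macro-metastatic livers, more than monocytes. Both genes passed under all 17 alternatives, and so did Slpi, a secreted protease inhibitor, with 475 and 817 CPM in macro-metastatic livers, against 6.18 and 21.6 CPM in control livers and a log2 fold change of 5.40 (SE 0.56, edgeR adjusted p = 0.00135), and F10, coagulation factor X, with 419.5 and 243 CPM in macro-metastatic livers, against 18.5 and 8.64 CPM in control livers and a log2 fold change of 4.69 (SE 0.52, edgeR adjusted p = 0.00182). Il1a, the interleukin 1 alpha gene, had 649 and 167 CPM in macro-metastatic livers, against 18.5 and 4.32 CPM in control livers, a log2 fold change of 5.31 (SE 0.95, edgeR adjusted p = 0.0143). Ifitm1, an interferon-induced membrane protein, had 2 UMIs in controls and a ratio of 45 (exact 95% counting interval 12.4 to 372). Lrg1, a leucine-rich glycoprotein, and Cd177, a neutrophil surface antigen, had none and were at least 9.45-fold and 8.84-fold higher. Of these 4, all lost their call without control replicate 1. Neutrophils of macro-metastatic livers also held more Ifitm1, at 1164 and 1294 CPM, and more Lrg1, at 421 and 717 CPM, than monocytes.

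Of the 22 monocyte identity genes outside the rule, 4 rose (Vcan, Hp, Ifitm3 and Cd177) and 1 fell, with a median log2 fold change of 0.61. Over all libraries together neutrophils held more Hp (802 against 234 CPM) and Cd177 (160 against 34.6 CPM) than monocytes, and less Vcan and Ifitm3. In members with 3 or 4 markers the summed list had 18963 and 15545 CPM in control and 19367 and 16390 CPM in macro-metastatic livers. With 2 markers it had 7195 and 7881 CPM and 8730 and 8030 CPM. The part of neutrophil transcripts and subsets in these rises was not tested. The median was 0.24 with GC and length offsets, 0.09 without members holding markers of another class and 0.26 without macro-metastatic replicate 1. Vcan, which encodes the matrix proteoglycan versican, had 61.8 and 17.3 CPM in control, 425 and 139 CPM in pre-metastatic and 712 and 513 CPM in macro-metastatic livers, without overlap between cancer stages and control; the log2 fold change was 4.07 (SE 0.67, edgeR adjusted p = 0.00987). Ifitm3, an antiviral membrane protein, had 1943 and 1449 CPM in macro-metastatic livers, against 736 and 769 CPM in control livers, a log2 fold change of 1.17 (SE 0.21, edgeR adjusted p = 0.0135). Gpr141, an orphan receptor, fell to 218 and 248 CPM in macro-metastatic livers, against 525 and 402 CPM in control livers, a log2 fold change of -0.99 (SE 0.20, edgeR adjusted p = 0.0247). None of these 3 passed without control replicate 1 or 2. Chemokine receptors and adhesion molecules gave 6 rises and 1 fall in 23, median log2 fold change 0.62, and 0 of either without control replicate 1 or 2. Without macro-metastatic replicate 1 the rises were 2, and with the offsets the median was 0.22. Itga5, an integrin chain that binds fibronectin, had 133 and 145 CPM in macro-metastatic livers, against 6.18 and 13 CPM in control livers, a log2 fold change of 3.76 (SE 0.51, edgeR adjusted p = 0.0043). C5ar1, the receptor for complement C5a, had 324 and 309 CPM in macro-metastatic livers, against 43.3 and 86.4 CPM in control livers, a log2 fold change of 2.23 (SE 0.38, edgeR adjusted p = 0.0124). Itgal, the LFA-1 alpha chain, fell to 351 and 252 CPM in macro-metastatic livers, against 680.0 and 562 CPM in control livers, a log2 fold change of -1.03 (SE 0.23, edgeR adjusted p = 0.0344).

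Of 17 coagulation, fibrinolysis and matrix genes 6 rose and none fell, median log2 fold change 1.5, and of 28 macrophage differentiation genes 5 rose and none fell, median 0.90. Without control replicate 1 and 2 these counts were 2 and 1, and 1 and 0; for macrophage genes 3 rose without macro-metastatic replicate 1, 9 without replicate 2 and 1 with GC and length offsets. Tgfbi, a matrix protein induced by TGF-beta, had 1280.5 and 1417 CPM in macro-metastatic livers, against 457 and 458 CPM in control livers, a log2 fold change of 1.56 (SE 0.28, edgeR adjusted p = 0.0146). Anxa2, an annexin that binds plasminogen, had 791 and 779 CPM in macro-metastatic livers, against 346 and 311 CPM in control livers, a log2 fold change of 1.26 (SE 0.20, edgeR adjusted p = 0.00782). Ctsl, a lysosomal protease, had 402 and 519.5 CPM in macro-metastatic livers, against 136 and 177 CPM in control livers, a log2 fold change of 1.54 (SE 0.25, edgeR adjusted p = 0.00872). Lgals3, which encodes galectin 3, had 2407 and 1692 CPM in macro-metastatic livers, against 797 and 752 CPM in control livers, a log2 fold change of 1.41 (SE 0.24, edgeR adjusted p = 0.0125). Cell cycle genes gave 1 rise in 26, Cenpa, a centromere histone, with 115 and 130.4 CPM in macro-metastatic livers, against 49.5 and 47.5 CPM in control livers. That count is close to the 4.95% called higher over all genes tested.

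Antigen presentation and interferon genes did not follow the inflammatory lists. Over all genes tested 4.95% were called higher and 1.70% lower, and the few calls in these lists were not tested against those shares. Of 10 MHC class II genes 1 rose and 1 fell, median log2 fold change -0.32. With GC and length offsets 1 rose and 3 fell, median -1.04, and in the set selected after thinning none passed, median -1.47. H2-DMa, which helps load class II molecules, had 274 and 336 CPM in macro-metastatic livers, against 18.5 and 38.9 CPM in control livers, a log2 fold change of 3.33 (SE 0.35, edgeR adjusted p = 0.00135). Ciita, the class II transactivator, fell to 82.3 and 85.3 CPM in macro-metastatic livers, against 210.2 and 199 CPM in control livers, a log2 fold change of -1.28 (SE 0.22, edgeR adjusted p = 0.0114). Of 18 class I genes only Psmb8, an immunoproteasome subunit, passed, with 227 and 264 CPM in macro-metastatic livers, against 37.1 and 51.9 CPM in control livers and a log2 fold change of 2.43 (SE 0.30, edgeR adjusted p = 0.00277). Type I interferon-stimulated genes gave 2 rises and 2 falls in 33, median -0.38. This balance rested on single libraries, with 5 rises and 1 fall, median -0.09, without macro-metastatic replicate 2, 0 and 3, median -0.75, without macro-metastatic replicate 1, and none of either without control replicate 1. Interferon-gamma-induced genes gave 1 rise and 3 falls in 19, median 0.01, or -0.03 with GC and length offsets. Ifi27l2a had 444 and 203 CPM in macro-metastatic livers, against 80.4 and 69.2 CPM in control livers, a log2 fold change of 2.13 (SE 0.43, edgeR adjusted p = 0.0236). Phf11b fell to 28.7 and 24.4 CPM in macro-metastatic livers, against 92.7 and 99.4 CPM in control livers, a log2 fold change of -1.85 (SE 0.33, edgeR adjusted p = 0.0137). Fcgr1, the high-affinity Fc gamma receptor, had 101 and 71.3 CPM in macro-metastatic livers, against 18.5 and 8.64 CPM in control livers, a log2 fold change of 2.75 (SE 0.51, edgeR adjusted p = 0.0169). Of the 8 genes that passed in the 2 interferon lists, only Irf8 passed without control replicate 1.

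Irf8 (ENSMUSG00000041515, chr8:120736358-120756694), the transcription factor that directs monocyte and dendritic cell fate, fell. It had 705 and 921 CPM in control, 402 and 422 CPM in pre-metastatic and 191 and 301 CPM in macro-metastatic livers, without overlap, a log2 fold change of -1.73 (SE 0.25, edgeR adjusted p = 0.00556). Members with 3 or 4 markers had 480.1 and 633 CPM in control, 205 and 168 CPM in pre-metastatic and 95.5 and 82.5 CPM in macro-metastatic livers. Those with 2 markers had 932 and 1129 CPM in control, 676 and 549.6 CPM in pre-metastatic and 316 and 477 CPM in macro-metastatic livers, and in both subsets the macro-metastatic libraries were the lowest. The call was lost without control replicate 2 (log2 fold change -1.52, edgeR adjusted p = 0.0632), without members holding markers of another class (-1.29, 0.0903) and in the set selected after thinning (-1.17, 0.223), and kept among members with at least 3 markers (-2.42, 0.000554). Over all libraries together Irf8 was at 346 CPM in monocytes, against 1496 CPM in dendritic cells and 2355 CPM in plasmacytoid dendritic cells. The share of members that met the dendritic cell gate was lower in macro-metastatic than in control libraries, as given above. In the members selected before thinning, the share with an Irf8 UMI at 1000 UMIs a barcode was 31.4% and 38.3% in the control group, 19.1% and 22.4% in the pre-metastatic group and 15.2% and 20.5% in the macro-metastatic group (unthinned, 45.7% and 53.2% in the control group, 42.9% and 40.8% in the pre-metastatic group and 37.2% and 37.5% in the macro-metastatic group). B cells, which also express Irf8, had 23.9% and 23.6% in the control group, 23.1% and 24% in the pre-metastatic group and 26.3% and 23.9% in the macro-metastatic group after thinning. Of 29 monocyte transcription factors 2 rose, Hif1a and Ets2, and only Irf8 fell, median log2 fold change 0.16, which was -0.10 with GC and length offsets. These counts are close to the shares over all genes tested, 4.95% higher and 1.70% lower. Among 17 genes of patrolling monocytes, the Ly6c2-low counterpart, median log2 fold change 0.28, or -0.11 with GC and length offsets, none rose and Adgre4 and Itgal fell; Adgre4, an adhesion receptor, had 79.9 and 90.0 CPM in macro-metastatic livers, against 291 and 298 CPM in control livers, a log2 fold change of -1.80 (SE 0.28, edgeR adjusted p = 0.00782).

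The largest falls by the rule for named genes were in genes of low level. Ctla2a (ENSMUSG00000044258, chr13:60934155-60936625), a cathepsin inhibitor, had 105 and 112 CPM in control, 51.9 and 71.9 CPM in pre-metastatic and 18.3 and 11.3 CPM in macro-metastatic livers, without overlap, a log2 fold change of -2.83 (SE 0.36, edgeR adjusted p = 0.00328). Zfp217, a zinc finger factor, had 22 and 30.9 CPM in macro-metastatic livers, against 161 and 125 CPM in control livers, a log2 fold change of -2.44 (SE 0.30, edgeR adjusted p = 0.00275). Adk, adenosine kinase, had 21.3 and 24.4 CPM in macro-metastatic livers, against 105 and 99.4 CPM in control livers, a log2 fold change of -2.16 (SE 0.29, edgeR adjusted p = 0.0041). Xcr1, a chemokine receptor of cross-presenting dendritic cells and a gene of the dendritic cell gate, had 17.1 and 61.9 CPM in macro-metastatic livers, against 124 and 229 CPM in control livers, a log2 fold change of -2.26 (SE 0.56, edgeR adjusted p = 0.0468). Tlr11, a receptor for microbial profilin in mice, had 4.88 and 23.4 CPM in macro-metastatic livers, against 105 and 64.8 CPM in control livers, a log2 fold change of -2.67 (SE 0.65, edgeR adjusted p = 0.0457). Rtl8b, Adam19, Rtl8a, Fchsd2 and Calhm2 completed the 10, with log2 fold changes of -2.28, -2.20, -2.18, -2.16 and -2.16. Of the 10, all but Ctla2a and Calhm2 were lower in monocytes than in dendritic cells over all libraries together. Xcr1 had 94.8 CPM in monocytes against 840.5 CPM in dendritic cells, Tlr11 33.8 against 224 CPM and Rtl8a 48.1 against 331 CPM. The part of dendritic cell transcripts in these falls was not tested. Genes listed for other cells fell too, although 1 of them, Cd209a, was not highest in dendritic cells. Over all libraries together it was at 630 CPM in monocytes, against 100 CPM in dendritic cells. The 150 members that met the dendritic cell gate counted as monocytes and not as dendritic cells here. The part of that choice in the levels of both classes was not tested. Cd209a had 187 and 334 CPM in macro-metastatic livers, against 785 and 661 CPM in control livers, a log2 fold change of -1.48 (SE 0.34, edgeR adjusted p = 0.036), 1 of 3 falls in 13 dendritic cell genes whose median log2 fold change was -0.91. None of these 13 passed without either control library or without macro-metastatic replicate 1, and 7 fell without macro-metastatic replicate 2. Of 19 hepatocyte genes 12 fell, led by Alb with 18.9 and 29.1 CPM in macro-metastatic livers, against 711 and 216 CPM in control livers and a log2 fold change of -4.26 (SE 0.60, edgeR adjusted p = 0.00517), and 1 fell without control replicate 1 and 3 without macro-metastatic replicate 1. Immediate-early and heat-shock genes gave 3 rises and 2 falls in 30, beside 4.95% higher and 1.70% lower over all genes tested. Fos had 976 and 675 CPM in macro-metastatic livers, against 2497 and 1979.5 CPM in control livers, a log2 fold change of -1.44 (SE 0.22, edgeR adjusted p = 0.00637). Hspa8, a constitutive chaperone, had 1357 and 885 CPM in macro-metastatic livers, against 303 and 328 CPM in control livers, a log2 fold change of 1.83 (SE 0.24, edgeR adjusted p = 0.00378). Neither passed without control replicate 1.

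Macro-metastatic monocytes were also set against pre-metastatic ones, which asks what differs between the cancer stages. The shallow control libraries are not compared here, but they still enter the shared fit through its filter and its estimate of spread. This comparison and that with control share the macro-metastatic libraries. Crip1, a small LIM-domain protein, had 1250.0 and 1128 CPM in macro-metastatic livers, against 61.2 and 79.4 CPM in pre-metastatic livers, a log2 fold change of 4.09 (SE 0.21, edgeR adjusted p = 6.43e-05), although control monocytes stood between at 239.5 and 268 CPM before library scaling. B cells had 350.2 and 777 CPM in macro-metastatic and 31.1 and 53.9 CPM in pre-metastatic livers. Cxcl1 had a log2 fold change of 3.70 (SE 0.27, edgeR adjusted p = 0.000169), Slfn2 of 3.45 (SE 0.25, edgeR adjusted p = 0.000161), Hp of 3.86 (SE 0.28, edgeR adjusted p = 0.000161), Hilpda of 3.14 (SE 0.33, edgeR adjusted p = 0.000879) and Gapdh of 3.52 (SE 0.23, edgeR adjusted p = 0.000133). Ccl2, the ligand of CCR2, had 469 and 471 CPM in macro-metastatic livers, against 90.8 and 109 CPM in pre-metastatic livers, a log2 fold change of 2.24 (SE 0.31, edgeR adjusted p = 0.00323). Of the inflammatory list 15 of 32 rose and none fell, median log2 fold change 1.14 against 0.01 over all genes, and of the suppressor-type list 12 of 26 rose and 1 fell, median 0.92. Without pre-metastatic replicate 1 the inflammatory count was 5, and without pre-metastatic replicate 1 or 2 or macro-metastatic replicate 1 the suppressor-type count was 7. The hypoxia and glycolysis list gave 13 rises in 28, median 0.56, and 7 with GC and length offsets; 9 and 8 rose without pre-metastatic replicate 1 and 2. Oxidative phosphorylation gave 15 in 33, median 0.84, and 3 with the offsets; 2, 6 and 6 rose without pre-metastatic replicate 1, pre-metastatic replicate 2 and macro-metastatic replicate 1. Iron, metallothionein and antioxidant genes gave 12 in 19, median 1.18, and 6 and 4 without pre-metastatic replicate 1 and 2. No gene of these 3 lists fell. Over all genes, 7.42% were called higher and 2.44% lower in this comparison.

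Large falls in macro-metastatic against pre-metastatic monocytes included lectin genes. Mgl2, a galactose-binding lectin, had 92.7 and 159.9 CPM in control, 299.9 and 952 CPM in pre-metastatic and 89 and 50.6 CPM in macro-metastatic livers, a log2 fold change of -3.13 (SE 0.52, edgeR adjusted p = 0.00728). Cd209a had 187 and 334 CPM in macro-metastatic livers, against 817 and 1459 CPM in pre-metastatic livers, a log2 fold change of -2.13 (SE 0.33, edgeR adjusted p = 0.00555), and Cd209d 12.2 and 24.4 CPM in macro-metastatic livers, against 88.7 and 201 CPM in pre-metastatic livers, a log2 fold change of -3.01 (SE 0.46, edgeR adjusted p = 0.00492). In each of the 3 the pre-metastatic libraries did not overlap the macro-metastatic ones. Ciita fell as well, with 82.3 and 85.3 CPM in macro-metastatic livers, against 213 and 236 CPM in pre-metastatic livers and a log2 fold change of -1.42 (SE 0.19, edgeR adjusted p = 0.00295). Among members with at least 3 markers none of the 4 passed. Of 13 dendritic cell genes 3 fell (Cd209a, Xcr1 and Zbtb46) and 1 rose (Ccr7), median log2 fold change -0.72. What dendritic cell transcripts add to these falls was not tested. Type I interferon-stimulated genes gave 5 falls and 1 rise in 33, median log2 fold change -0.72, and none passed without pre-metastatic replicate 1 or 2. Without macro-metastatic replicate 2 the balance turned to 1 fall and 5 rises, median -0.42. Slfn5, an interferon-induced schlafen gene, had 192 and 194 CPM in control, 451 and 427 CPM in pre-metastatic and 199 and 79.7 CPM in macro-metastatic livers, a log2 fold change of -1.64 (SE 0.34, edgeR adjusted p = 0.0194). Oasl1 had 296 and 119 CPM in macro-metastatic livers, against 45.7 and 39.7 CPM in pre-metastatic livers, a log2 fold change of 2.28 (SE 0.40, edgeR adjusted p = 0.00905). Irf2, an interferon regulatory factor, had 186 and 212 CPM in macro-metastatic livers, against 386 and 403 CPM in pre-metastatic livers, a log2 fold change of -0.99 (SE 0.18, edgeR adjusted p = 0.0121), and Itga4, the VLA-4 alpha chain, 368 and 304 CPM in macro-metastatic livers, against 549 and 625 CPM in pre-metastatic livers, a log2 fold change of -0.80 (SE 0.19, edgeR adjusted p = 0.0302).

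Pre-metastatic monocytes differed less from controls than macro-metastatic ones in count of calls, although the difference between the contrasts was not tested for single genes. The smallest adjusted p in that comparison was 0.0855, shared by Arg2 (log2 fold change 2.86) and Crip1 (-1.83). Cxcl1 was next, with 124 and 131 CPM in pre-metastatic livers, against 12.4 and 8.64 CPM in control livers and an edgeR adjusted p of 0.149. Cd14 had 1123 and 993 CPM in pre-metastatic livers, against 377 and 475 CPM in control livers and Il1r2 had 219 and 272 CPM in pre-metastatic livers, against 18.5 and 73.5 CPM in control livers, with edgeR adjusted p = 0.207 and 0.207. In these genes except Crip1 both pre-metastatic libraries were above both control libraries. Median log2 fold changes were 0.36 for the inflammatory and 1.16 for the suppressor-type list, and that of the suppressor-type list was 1.02 with genes absent from controls at their bound, against 0.02 over all genes.

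B cells of the same libraries were set beside the monocytes. In a model over both cell types, 47 of 9466 genes (0.497%) changed differently in monocytes than in B cells between macro-metastatic and control livers, 25 more upward and 22 more downward in monocytes. Slfn2 exceeded B cells by 3.84 (SE 0.50, edgeR adjusted p = 0.000517) on the log2 scale, where B cells stood at 58.4 and 29.2 CPM in macro-metastatic and 16.6 and 16.7 CPM in control livers. Hilpda exceeded B cells by 2.98 (SE 0.44, edgeR adjusted p = 0.00161) and Cxcl1 by 3.24 (SE 0.71, edgeR adjusted p = 0.045). Mdm2, the p53 ubiquitin ligase, had 335 and 229 CPM in macro-metastatic livers, against 68 and 47.5 CPM in control livers in monocytes, and 114 and 116 CPM in macro-metastatic and 113 and 117 CPM in control livers in B cells, a difference of 2.22 (SE 0.36, edgeR adjusted p = 0.00363). Cflar, an inhibitor of caspase 8, differed by 2.23 (SE 0.37, edgeR adjusted p = 0.00384), Hif1a by 1.68 (SE 0.36, edgeR adjusted p = 0.0439) and Fth1 by 0.93 (SE 0.18, edgeR adjusted p = 0.0184). Irf8 had a difference of -1.83 (SE 0.28, edgeR adjusted p = 0.00187), and B cells held 276 and 236 CPM in macro-metastatic and 237 and 257 CPM in control livers. Fgl2, a fibrinogen-like protein, differed by -2.89 (SE 0.34, edgeR adjusted p = 0.000175); monocytes had 136 and 142 CPM in macro-metastatic livers, against 278 and 319.8 CPM in control livers and B cells 65.1 and 78.3 CPM in macro-metastatic and 21.5 and 22 CPM in control livers.

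Some genes changed by a smaller factor in monocytes than in B cells, where their levels were far lower. Cd14 had 67.4 and 40.7 CPM in macro-metastatic and 0.977 and 2.64 CPM in control livers in B cells, and the difference was -2.59 (SE 0.52, edgeR adjusted p = 0.0239). Il1b had 213 and 57.4 CPM in macro-metastatic and 8.79 and 5.27 CPM in control livers in B cells, a difference of -2.96 (SE 0.45, edgeR adjusted p = 0.00187), and Ccl4, a chemokine gene, 164 and 135 CPM in macro-metastatic and 11.7 and 8.79 CPM in control livers, a difference of -3.25 (SE 0.35, edgeR adjusted p = 3.96e-05). Over whole lists the median difference from B cells was -0.21 for the inflammatory, -0.04 for the suppressor-type, 0.28 for the iron and 0.86 for the hypoxia and glycolysis genes, with 1, 1, 1 and 2 genes changed more upward and 3, 1, 0 and 0 more downward. For oxidative phosphorylation it was 0.52. It was -0.09 for pattern recognition, -0.61 for cytokine receptor and -0.40 for chemokine receptor and adhesion genes. For coagulation and matrix, macrophage differentiation and monocyte identity genes it was -0.35, -0.06 and -0.76. The counts relative to B cells were 21 and 12 without control replicate 1 and 2 and 29 without macro-metastatic replicate 1, and 133 without pre-metastatic replicate 1 or without replicate 2, and 80 without macro-metastatic replicate 2. Between macro-metastatic and pre-metastatic livers 36 genes (0.380%) differed from B cells, a count of 80, 20 and 69 without pre-metastatic replicate 2, macro-metastatic replicate 1 and macro-metastatic replicate 2. Slfn2 exceeded B cells by 2.85 (SE 0.35, edgeR adjusted p = 0.000257) and Hp by 2.93 (SE 0.47, edgeR adjusted p = 0.00488). Ccnd3, a D-type cyclin, had 358 and 287 CPM in macro-metastatic livers, against 102 and 80.5 CPM in pre-metastatic livers in monocytes, and 126 and 147 CPM in macro-metastatic and 238 and 178 CPM in pre-metastatic livers in B cells, a difference of 2.31 (SE 0.27, edgeR adjusted p = 0.000247). Zfp36l2, an mRNA decay factor, had 686 and 576 CPM in macro-metastatic livers, against 1555 and 1045 CPM in pre-metastatic livers in monocytes, and 305 and 246 CPM in macro-metastatic and 2220.0 and 1593 CPM in pre-metastatic livers in B cells, lower at the later stage in both cell types, a difference of 1.67 (SE 0.20, edgeR adjusted p = 0.000247).

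**Figure D5:**
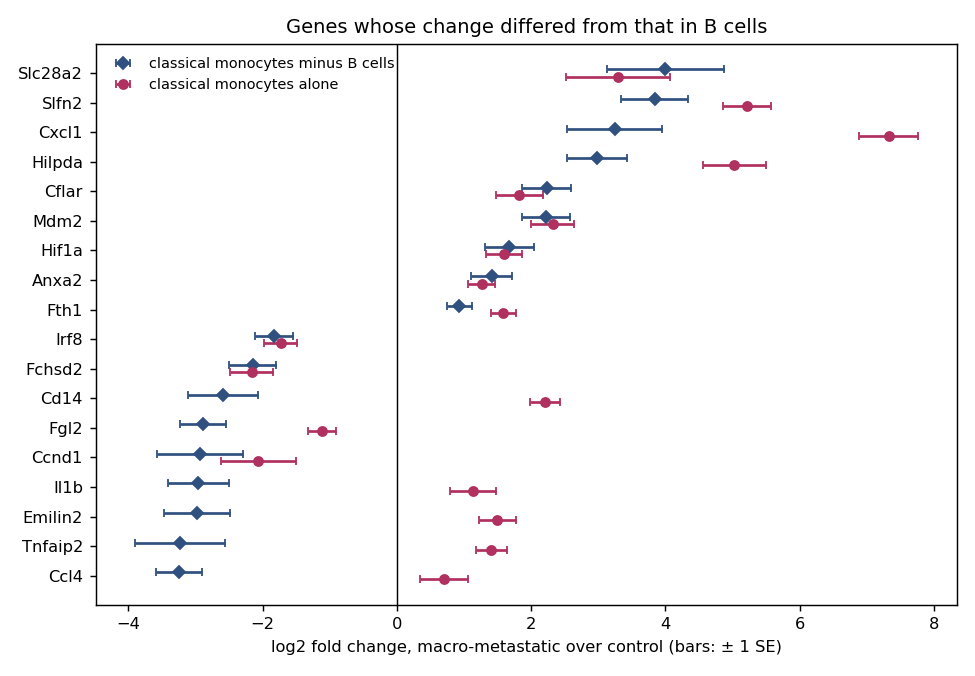
Log2 fold change of macro-metastatic over control livers for the 18 named genes whose change differed between monocytes and B cells. Diamonds give the difference between monocytes and B cells and circles the change in monocytes alone, each ± 1 SE. Slfn2 lies at 3.84 and 5.21, while Cd14 lies at -2.59 and 2.20.

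Levels in other liver myeloid cells are given as a description, with no test. In macro-metastatic livers Cxcl1 stood at 3179 and 1922 CPM in Kupffer cells, the resident macrophages, and at 4934 and 3186 CPM in Spp1/Arg1 macrophages, above the monocytes of the same library. Hilpda was at 1324 and 782 CPM in Kupffer cells and 651 and 300.5 CPM in neutrophils, with monocytes between at 927 and 578 CPM. Clec4e was higher in monocytes than in Kupffer cells in every library, for instance 1406 and 1031 CPM against 411 and 139.9 CPM in macro-metastatic livers.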

How the data were processed

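Whole mouse livers were profiled with the BD Rhapsody whole-transcriptome assay, with paired-end reads, per the labels' protocols. Livers were digested with collagenase, red cells were lysed and dead cells removed. Per the submitters' processing notes, CASAVA 1.8 and UMI-tools were used with build mm10; which aligner and annotation were used is not given in the sources used here. Raw UMI counts were deposited by the authors, 1 matrix per library. No deposited annotation of cells was used, so classes were rebuilt from marker genes, and members and gene lists were chosen with earlier results of these data known.

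A barcode was kept from 300 detected genes and below 25% mitochondrial UMIs, which left 66935. Library totals were 41914149 to 90819751 UMIs, and monocyte sums 158658 to 1875439, which limits precision in controls. UMIs of the members were summed per library. Genes passing edgeR's filterByExpr (8446) were tested with the quasi-likelihood test (edgeR 4.0.16, R 4.3.3), TMM factors of 0.907 to 1.05, all 3 groups in 1 fit with 3 residual degrees of freedom, and Benjamini-Hochberg adjustment at 0.05. CPM values are scaled by these factors, except in statements on classes, marker subsets, list sums and rule genes. The comparison with B cells used class and group with library as a block, over 9466 genes, and shares were tested in edgeR over 12 classes. Intervals (Wilson or exact, 95%) and floors of 3 UMIs cover counting error only. Genes named are the 10 largest called rises and falls per comparison under filters on level, overlap and other classes, up to 4 per list by smallest adjusted p, and 6 each way relative to B cells; some of these are not described. Scrublet (scanpy 1.11.5) with a common threshold chosen after seeing the data marked 8 members as doublets, which were kept. Same-numbered libraries were not paired in the labels. Alternatives were DESeq2 1.42.0, RLE factors, no filter on low counts, a replicate block, GC and length offsets (31107 of 31253 features matched), other membership rules and leaving out each library. The tests were checked on simulated data. Some results that met the rule for named genes are not reported here.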

Additional observations from a re-analysis of the deposited data

Results flagged for a closer look

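The genes below, of those named in the text, were singled out because their change between stages differed between classical monocytes and B cells of the same libraries, by edgeR's test of the difference itself over 9466 genes. Between macro-metastatic and control livers, the genes that changed more upward in monocytes than in B cells, each with its difference on the log2 scale and its edgeR adjusted p in brackets, were Slc28a2 3.99 (0.045), Slfn2 3.84 (0.000517), Cxcl1 3.24 (0.045), Hilpda 2.98 (0.00161), Cflar 2.23 (0.00384), Mdm2 2.22 (0.00363), Hif1a 1.68 (0.0439), Anxa2 1.41 (0.0448) and Fth1 0.93 (0.0184). Between macro-metastatic and control livers, the genes that changed more downward in monocytes than in B cells, each with its difference on the log2 scale and its edgeR adjusted p in brackets, were Ccl4 -3.25 (3.96e-05), Tnfaip2 -3.23 (0.0293), Emilin2 -2.98 (0.00384), Il1b -2.96 (0.00187), Ccnd1 -2.93 (0.0452), Fgl2 -2.89 (0.000175), Cd14 -2.59 (0.0239), Fchsd2 -2.15 (0.00377) and Irf8 -1.83 (0.00187).

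Between macro-metastatic and pre-metastatic livers, the genes that changed more upward in monocytes than in B cells, each with its difference on the log2 scale and its edgeR adjusted p in brackets, were Hp 2.93 (0.00488), Slfn2 2.85 (0.000257), Ccnd3 2.31 (0.000247), Abca1 2.05 (0.0168) and Zfp36l2 1.67 (0.000247). Between macro-metastatic and pre-metastatic livers, the genes that changed more downward in monocytes than in B cells, each with its difference on the log2 scale and its edgeR adjusted p in brackets, were Egr3 -2.18 (0.0174), Cyp51 -1.91 (0.0351), Fgl2 -1.78 (0.00742), Eif2ak3 -1.72 (0.00876), Nr4a1 -1.49 (0.00846) and Ccl6 -1.47 (0.0106). The differences are ratios of ratios. Several of the genes with a negative difference, among them Ccl4, Il1b and Cd14, had far lower levels in B cells than in monocytes, as given above for those genes. The change of Egr3 in monocytes alone, macro-metastatic over pre-metastatic, turned to 0.34 with barcodes thinned to 1000 UMIs. No group held enough libraries for a check of single outlying libraries.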

How the results depend on the processing

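Of 1769 alternative fits for 105 pairs of a named gene and a comparison, 1526 gave the same direction and side of the threshold, 195 lost the call, 47 gained one and 1 turned round. That one was Egr3 between macro-metastatic and pre-metastatic monocytes, 0.3424 with barcodes thinned to 1000 UMIs. The counts of changed genes moved by over 1.5 times as follows, and the cause was not tested. For macro-metastatic over control monocytes, 1225 were called with no filter on low counts, 848 with the Csf3r condition dropped, 273 without members holding markers of another class and 158 after thinning. For pre-metastatic over control the count was 22 with DESeq2, 234 with no filter and 4 with at least 3 markers. For macro-metastatic over pre-metastatic it was 1423 with no filter, 517 with GC and length offsets, 408 without members holding other markers and 381 after thinning. Relative to B cells and against control, the count was 168 with at least 3 markers, 163 without members holding other markers, 72 after thinning and 80 with the Csf3r condition dropped; against pre-metastatic it was 101, 73 and 55 under the first 3 of these. The share of monocytes between the cancer stages turned to 0.4925 after thinning.

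Leaving out each library in turn gave 112 to 627 genes for macro-metastatic over control, 0 to 12 for pre-metastatic over control, 215 to 765 for macro-metastatic over pre-metastatic, and 12 to 133 and 20 to 80 relative to B cells. For the share, log2 fold changes were 1.668 to 2.521 for macro-metastatic over control, 2.196 to 3.237 for pre-metastatic over control and -1.139 to -0.03969 for macro-metastatic over pre-metastatic. Libraries share replicate numbers only: deviations of same-numbered libraries correlated at 0.0694, 0.101 and 0.221, and with the replicate block 747, 14 and 1132 genes were called. The control monocytes, 82 in all, limit the depth of both comparisons with control.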
